A study of Mus musculus with 4 samples.

Results

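The cell cycle genes described here were 40 genes, chosen by name. All 40 had a row in both gene matrices, which list 32285 genes. Of them, 18 act mainly in S phase, when DNA is copied, and 22 act in G2 and M, when the copied chromosomes are separated. A cell that enters the cycle first makes the helicase, clamp and nucleotide enzymes needed to copy its genome, largely through E2F factors. It later makes the cyclins, kinases and motors of mitosis, many of them through factors that read a promoter word called the cell cycle homology region (CHR). Macrophages of the adult heart are kept up partly by division in place, and activated lymphocytes divide quickly, whereas circulating neutrophils have left the cycle.

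The study profiled cells sorted from mouse hearts by CITE-seq, which reads a cell's RNA and a panel of antibody tags from the same droplet. The isotype library came from C57BL6J mice given a Rat IgG antibody, and the anti-CD40 library from C57BL6J mice given an agonist antibody to CD40, a receptor of antigen-presenting cells. Each library pooled the digested hearts, atria removed, of 4 mice. The sorted population is given as CD45+DAPI- in the sample labels and as DRAQ5+DAPI- in the design text, and the age of the mice, the antibody dose and the time of harvest are not given in the sources used here. With 1 library per group there is no replicate check and no test: intervals are at the 95% level and cover counting error only (exact, or Newcombe for a difference of shares), and an effect of the antibody and other differences between the 2 preparations cannot be told apart.

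Barcodes were kept from 200 genes upward and below 10% mitochondrial UMIs (unique molecular identifiers, each standing for 1 captured RNA molecule). This kept 2558 of 4908 isotype barcodes and 4278 of 7087 anti-CD40 barcodes, with a median of 5446 and 8284.5 UMIs a cell. The libraries shared 13 barcodes, 6 of them kept in both. Cells were gated by marker genes, with no cell cycle gene among the markers. The phagocyte gate (Csf1r, C1q genes, Adgre1, Fcgr1 and others) took 713 and 2096 cells, isotype first here and below. The neutrophil gate took 125 and 286, the B cell gate 308 and 12, the T cell gate 27 and 160, the NK cell gate 83 and 104, the classical monocyte gate 78 and 84, the conventional dendritic cell gate 60 and 14. The Ly-6G antibody tag, a neutrophil marker that the gates did not use, made up a median of 0.739% and 0.490% of a neutrophil-gated cell's tag UMIs, against 0 in phagocyte-gated cells. The 2 tag entries for F4/80 differed from each other and were not used. CD45 marks leukocytes, and endothelial-gated and fibroblast-gated cells were few, 24 and 48 and 29 and 51. The phagocyte cut was 64 marker UMIs per 10000: 98 and 105 isotype cells and 205 and 199 anti-CD40 cells lay between 48 and 64 and between 64 and 80. A further 427 and 395 cells carried markers of more than 1 class ("mixed"), and 634 and 960 met no gate ("ungated"). No doublet caller was run, so the mixed cells may hold droplets with more than 1 cell.

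S members and G2 and M members differed in the words their promoters hold, and a few promoters are shown for that reason. RefSeq promoters (GRCm38.p6, 250 bases before to 50 after the transcription start) were found for 16 S and 19 G2 and M members. Mcm4, Gins2, Ccna2, Tpx2 and Aurkb had no entry. The E2F words searched were TTTCCCGC, TTTGGCGC, TTTCGCGC and TTTGCCGC, the CHR words were TTTGAA and TTCGAA, and the CCAAT box was CCAAT, all on both strands. E2F words can overlap each other, as in Mcm6. An E2F word was present in 7 of 16 S promoters (43.8%), in 1 of 19 G2 and M promoters (Cdk1) and in 2.32% of all 27025 promoters. A CHR word was present in 15 of 19 G2 and M promoters (78.9%), in 3 of 16 S promoters and in 19.4% of all promoters. Between 60 bases before and 50 after the start, a CHR word was present in 14 of 19 G2 and M promoters, in 1 of 16 S promoters and in 5.86% of all. CCAAT was less specific, in 17 of 19 G2 and M, 12 of 16 S and 37.9% of all promoters. A match is a description of letters, not evidence of binding, and its absence says only that these letters are not in the window.

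The 150 bases before the start of 3 S members with an E2F word and 4 G2 and M members with a CHR word are given 5′ to 3′ on the gene's strand, in lower case with every E2F, CHR and CCAAT word in capitals. The S members are Mcm6, a subunit of the replicative helicase, at chr1:128359706-128359855 (minus strand), Cdc6, which loads that helicase, at chr11:98908001-98908150 (plus strand), and Hells, a chromatin remodeller, at chr19:38930840-38930989 (plus strand). The G2 and M members are Cdk1, the kinase that starts mitosis, at chr10:69352913-69353062 (minus strand), Cks1b, a small subunit of that kinase, at chr3:89418292-89418441 (minus strand), Ube2c, an enzyme of cyclin destruction, at chr2:164769779-164769928 (plus strand), and Kif11, a spindle motor, at chr19:37376232-37376381 (plus strand).
Mcm6: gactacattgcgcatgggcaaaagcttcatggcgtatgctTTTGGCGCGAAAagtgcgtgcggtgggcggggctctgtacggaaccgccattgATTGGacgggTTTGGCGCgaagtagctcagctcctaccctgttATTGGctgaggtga
Cdc6: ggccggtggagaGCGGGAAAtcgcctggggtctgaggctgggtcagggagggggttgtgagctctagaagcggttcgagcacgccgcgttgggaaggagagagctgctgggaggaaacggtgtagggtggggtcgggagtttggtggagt
Hells: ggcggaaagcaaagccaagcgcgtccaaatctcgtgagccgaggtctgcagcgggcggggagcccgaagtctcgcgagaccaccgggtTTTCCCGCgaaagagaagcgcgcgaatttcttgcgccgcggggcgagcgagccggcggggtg
Cdk1: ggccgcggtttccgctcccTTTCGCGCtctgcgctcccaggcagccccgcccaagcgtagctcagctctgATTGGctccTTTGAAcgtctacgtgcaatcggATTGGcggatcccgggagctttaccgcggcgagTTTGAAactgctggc
Cks1b: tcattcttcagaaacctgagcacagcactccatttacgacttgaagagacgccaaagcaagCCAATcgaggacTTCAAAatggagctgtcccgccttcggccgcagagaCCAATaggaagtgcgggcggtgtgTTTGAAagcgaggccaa
Ube2c: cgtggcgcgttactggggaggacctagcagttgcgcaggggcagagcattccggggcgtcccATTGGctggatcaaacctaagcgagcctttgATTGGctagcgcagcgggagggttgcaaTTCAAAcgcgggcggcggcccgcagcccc
Kif11: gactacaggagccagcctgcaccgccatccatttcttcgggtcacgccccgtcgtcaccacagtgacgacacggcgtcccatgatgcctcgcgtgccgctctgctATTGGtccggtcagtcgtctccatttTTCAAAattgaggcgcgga
In Mcm6 the E2F words lay 110, 106 and 47 bases before the start, in Cdc6 138 and in Hells 62, and none of these 3 promoters held a CHR word. The CHR word nearest to the start lay 15 bases before it in Cdk1, 17 in Cks1b, 29 in Ube2c and 19 in Kif11. Cdk1 alone among the 19 held words of both kinds, with its E2F word 131 bases before the start.

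Cycling cells were more frequent in the anti-CD40 library in phagocyte-gated and NK-gated cells, and also in mixed and ungated cells. A cell was called cycling at 3 or more UMIs of Top2a, which untangles DNA for chromosome separation, plus Mki67, which coats mitotic chromosomes. Because the anti-CD40 cells were deeper, each cell was first thinned to 2000 UMIs, and shallower cells (579 and 659 of those kept) were left out. Among phagocyte-gated cells 11 of 566 isotype cells were then cycling, or 1.94% (0.974 to 3.45), and 91 of 1940 anti-CD40 cells, or 4.69% (3.79 to 5.73). The share differed by 2.75 percentage points (1.02 to 4.09), a ratio of 2.41 (1.29 to 5.01), and the shares' own intervals did not overlap. With all UMIs counted the shares were 20 of 713 (2.81%) and 294 of 2096 (14.0%). The difference at matched depth was small under stricter settings: it was 1.58 points (-0.929 to 3.38) when 500 genes and below 5% mitochondrial UMIs were asked for, 1.08 points (-0.262 to 2.06) with cells thinned to 1000 UMIs, and 0.958 points (-0.516 to 2.00) when 5 UMIs were required, each with an interval that included 0.

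NK and T cells held the highest cycling shares of the anti-CD40 classes with over 50 cells at this depth. Of NK-gated cells, 12 of 92 were cycling in the anti-CD40 library (13.04%, 6.93 to 21.7) against 0 of 63 in the isotype library (exact upper limit 5.69%). The difference was 13.04 points (5.14 to 21.4), and it was at least 7.61 points under the 9 other settings tried. T-gated cells are given as values only, since the isotype library held 27: 16 of 138 anti-CD40 cells were cycling (11.6%, 6.77 to 18.1) and 0 of 27 isotype cells. The exact upper limit for the latter was 12.8%, which lies above the anti-CD40 share. With all UMIs the T cell count was 38 of 160 (23.8%) and the NK cell count 17 of 104 (16.3%), against 1 of 83 NK cells of the isotype library.

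Neutrophils, which no longer divide once mature, served as the background. At 2000 UMIs 0 of 94 isotype neutrophils (exact upper limit 3.85%) and 2 of 234 anti-CD40 neutrophils (0.855%, 0.104 to 3.05) met the rule. The isotype phagocyte share of 1.94% lay below what the 0 of 94 allows, while the anti-CD40 phagocyte, T and NK shares lay above the upper limit for anti-CD40 neutrophils. A single UMI of Top2a or Mki67 was found in 3.19% and 7.69% of neutrophils and in 4.77% and 15.6% of phagocyte-gated cells at the same depth, so the rule of 3 UMIs was kept throughout. At 2000 UMIs classical monocytes were near this background, with 0 of 69 and 1 of 82 cells. Their difference of 1.22 points (-4.15 to 6.59) was not detectable at this depth and number of cells. With all UMIs 6 of 84 anti-CD40 classical monocytes met the rule (7.14%, 2.67 to 14.9) and 0 of 78 isotype ones. That difference was 7.14 points (1.09 to 14.7), and the median depth of these cells was alike, at 10421.5 UMIs in the isotype and 10017 in the anti-CD40 library.

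Dendritic cells held cycling cells in both libraries and B cells in neither. Of 58 isotype conventional dendritic cells, which are replenished by dividing precursors, 3 were cycling (5.17%, 1.08 to 14.4), and 8 of 60 (13.3%) with all UMIs. The anti-CD40 library held only 14 such cells, 4 of them cycling with all UMIs. None of 308 isotype B cells was cycling with all UMIs (exact upper limit 1.19%). The anti-CD40 library held only 12 B cells, 0 of them cycling, which leaves an exact upper limit of 26.5%. No endothelial-gated or fibroblast-gated cell met the rule in either library, among 24 to 51 cells each. Mixed cells held 3 of 357 and 25 of 352 cycling cells (0.840% and 7.10%) and ungated cells 4 of 459 and 25 of 619 (0.871% and 4.04%). The differences were 6.26 points (3.50 to 9.48) in mixed and 3.17 points (1.30 to 5.10) in ungated cells. Counted over all kept cells with all UMIs, 65 isotype and 594 anti-CD40 cells were cycling. Phagocyte-gated cells made up 30.8% (19.9 to 43.4) and 49.5% (45.4 to 53.6) of them. The gate held 27.9% and 49.0% of all kept cells, so its share of cycling cells was near its share of all cells. Conventional dendritic cells made up 12.3% and 0.673% of cycling cells, against 2.35% and 0.327% of kept cells. T cells made up 0 of 65 and 6.397%, against 1.06% and 3.74% of kept cells.

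**Figure D1:**
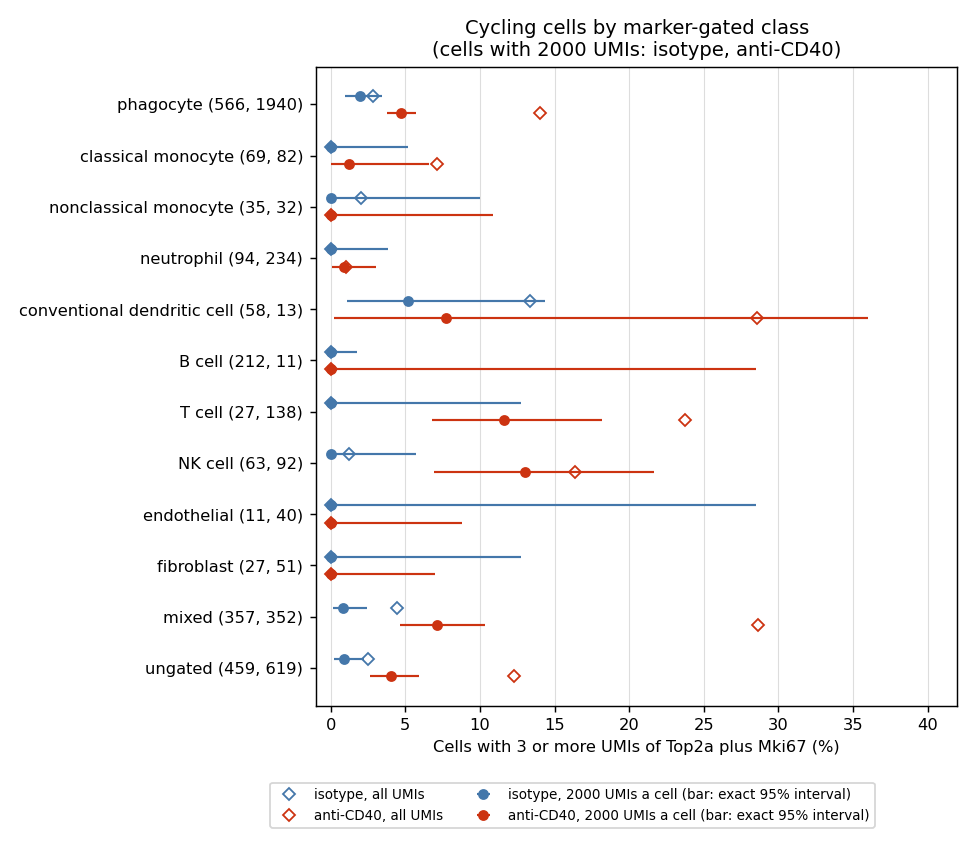
Cycling share of each class in percent (x axis) for the isotype and anti-CD40 libraries. Filled points with exact 95% intervals are cells thinned to 2000 UMIs, open diamonds use all UMIs, and the numbers of thinned cells stand in brackets. Anti-CD40 NK cells (13.04%) and T cells (11.6%) sit farthest right among the filled points of the classes with over 50 anti-CD40 cells, and neutrophils lie near 0, at 0 of 94 and 2 of 234 thinned cells.

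Within the phagocyte gate the intervals of the cycling share overlapped between macrophage subsets of each library. At 2000 UMIs, cells with a UMI of Timd4, Lyve1 or Folr2, markers of long-lived resident macrophages, and none of Ccr2 numbered 257 in the isotype library, 5 of them cycling (1.95%, 0.635 to 4.48), and 476 in the anti-CD40 library, 23 of them cycling (4.83%, 3.09 to 7.16). Cells with Ccr2, the receptor of monocyte-derived cells, and no resident marker held 0 of 53 (exact upper limit 6.72%) and 21 of 529 (3.97%, 2.474 to 6.004). Cells with neither held 6 of 243 (2.47%) and 43 of 858 (5.01%). Cycling phagocyte-gated cells had a median of 164 and 172 phagocyte marker UMIs per 10000, against 174 and 175 in the other phagocyte-gated cells, levels that the gate bounds by its own cuts. Their B cell markers were at a median of 0.856 and 0 and their classical monocyte markers at 11.4 and 5.40, while T cell, NK cell, endothelial and fibroblast markers were at 0. Their neutrophil markers were at a median of 0.475 and 1.87 per 10000, against 0 and 2.56 in the others. They were deeper than the others, with a median of 16644 against 6286 UMIs in the isotype library and 18201 against 9714.5 in the anti-CD40 library.

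Levels from here on are CPM, UMIs per 1000000 UMIs of the class, and more cells of a kind and more RNA in each cannot be told apart in them. Both sets of genes were higher in anti-CD40 phagocyte-gated cells, and which set was ahead changed with the setting. The 18 S members summed to 413 CPM (396 to 431) in the isotype library and 616 (607 to 626) in the anti-CD40 library, 1.49-fold (1.43 to 1.56, log2 0.58). The 22 G2 and M members summed to 852 (827 to 877) and 1161 (1148 to 1174), 1.36-fold (1.32 to 1.41, log2 0.45). These intervals treat UMIs as independent, which they are not within a cell: 5 isotype cells held 36.8% of the G2 and M UMIs and the 20 cycling ones 68.8%, whereas in the anti-CD40 library 5 cells held 6.65% and the 294 cycling cells 80.3%. In cells with 500 genes and below 5% mitochondrial UMIs the log2 ratio of the G2 and M sum was 0.15 and that of the S sum 0.50. Scaling by TMM factors moved every phagocyte log2 ratio by 0.30, giving 0.88 for S and 0.75 for G2 and M. The order turned in cells thinned to 2000 UMIs, at 0.56 for S and 0.60 for G2 and M, and as a mean over cells, at 0.55 and 0.77.

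Counted by gene, 25 of the 40 members were over 1.5-fold higher in anti-CD40 phagocytes and 1 was over 1.5-fold lower, where the shares among all 10473 genes with at least 30 UMIs in the higher library were 13.7% higher and 22.5% lower. All 40 members passed that minimum. Of the S members 15 of 18 were higher and 0 lower, with a median log2 ratio of 0.89, and of the G2 and M members 10 of 22 were higher and 1 lower, with a median of 0.57, while the median of all genes tested was -0.14. The count of higher members was 15 in cells with 500 genes and below 5% mitochondrial UMIs, and 9 at a fold of 2. The count of lower members was 2 under that filter, and 0 with TMM factors and in cells thinned to 2000 UMIs. There were 7 members, Ccna2, Cenpa, Cks2, Nusap1, Pcna, Prc1 and Slbp, whose direction differed between the settings tried, all of them within 1.5-fold here.

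Among the genes that build the replication fork, the helicase subunits Mcm2 to Mcm7 were all higher, between 1.51-fold (Mcm7, 22.6 and 34.3 CPM) and 1.97-fold (Mcm2, 10.3 and 20.2 CPM). Mcm6 went from 23.2 (19.3 to 27.7) to 43.5 (41.0 to 46.1), 1.87-fold (1.55 to 2.28). Cdc6 was at 3.61 and 7.77, 2.15-fold (1.34 to 3.65). Cdc45 and Gins2, which switch the helicase on, were 2.22-fold (1.26 to 4.28) and 1.58-fold (1.18 to 2.14) higher. Pclaf, a partner of the sliding clamp, had the largest ratio of the 40: 70 UMIs in 15 isotype cells and 1732 in 313 anti-CD40 cells, 13.3 and 65.7 CPM, 4.93-fold (3.88 to 6.36). Pcna, the clamp itself, differed from its partner, at 105 (96.8 to 114) and 88.0 (84.4 to 91.6), 0.835-fold (0.761 to 0.918), and its direction changed with the scaling. Among the enzymes of nucleotide supply, Rrm2, the cycle-limited subunit of ribonucleotide reductase, was at 4.75 and 15.2, 3.21-fold (2.14 to 5.01), while Rrm1, its partner subunit, was 1.49-fold (1.22 to 1.82) higher. Tyms and Dut, which make and guard the thymidine pool, were 1.78-fold and 1.88-fold higher. Uhrf1, which carries DNA methylation to the new strand, and Hells were 3.02-fold (2.16 to 4.33) and 2.73-fold (2.02 to 3.79) higher. Slbp, which binds histone mRNA, was at 84.8 and 72.2, 0.851-fold (0.767 to 0.946), and its direction too changed with the scaling.

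The G2 and M members spread to both sides of 1. Cdk1 was at 17.5 (14.1 to 21.5) and 24.5 (22.6 to 26.5), 1.40-fold (1.12 to 1.76), Ccna2, the cyclin of late S and G2, at 1.18-fold (0.947 to 1.49) with a direction that changed between settings, and the mitotic cyclins Ccnb1 and Ccnb2 at 1.63-fold (1.18 to 2.29) and 1.70-fold (1.39 to 2.09). Bub1, a kinase of the spindle checkpoint, was at 3.23 and 10.2, 3.17-fold (1.94 to 5.52), on 17 isotype UMIs. Of the other mitotic kinases, Plk1 was 1.77-fold, Aurkb 1.69-fold and Aurka 1.28-fold (0.865 to 1.94) higher, the last with an interval that included 1. Birc5, or survivin, which works with Aurkb, was 1.72-fold (1.46 to 2.04) and Ube2c 1.88-fold (1.60 to 2.22) higher. Top2a was at 59.3 and 120.5, 2.03-fold (1.81 to 2.29), and Mki67 at 82.1 and 122.6, 1.49-fold (1.35 to 1.65). Of the spindle proteins, Tpx2 was 1.63-fold and Kif11 1.48-fold higher, while Prc1 (1.23-fold) and Nusap1 (1.07-fold, 0.881 to 1.31) changed direction between settings. Cenpf, a kinetochore protein, was 1.44-fold (1.25 to 1.66) higher. The paired kinase subunits Cks1b and Cks2 went opposite ways, at 2.09-fold (1.67 to 2.64) and 0.774-fold (0.668 to 0.899), the latter at log2 -0.37 here, -0.07 with TMM and 0.01 in thinned cells. Cenpa, the centromere histone, was at 0.890-fold (0.780 to 1.02), with a direction that changed with the scaling. Kif23, the motor of the dividing furrow, was at 51.2 (45.2 to 57.6) and 30.2 (28.1 to 32.3), 0.590-fold (0.513 to 0.680). The log2 ratio of Kif23 was -0.76 here, -0.46 with TMM and -0.13 in thinned cells, so the size of its decrease depended on the setting. Hmgb2, a chromatin protein abundant also outside the cycle, was 1.30-fold (1.23 to 1.38) higher.

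**Figure D2:**
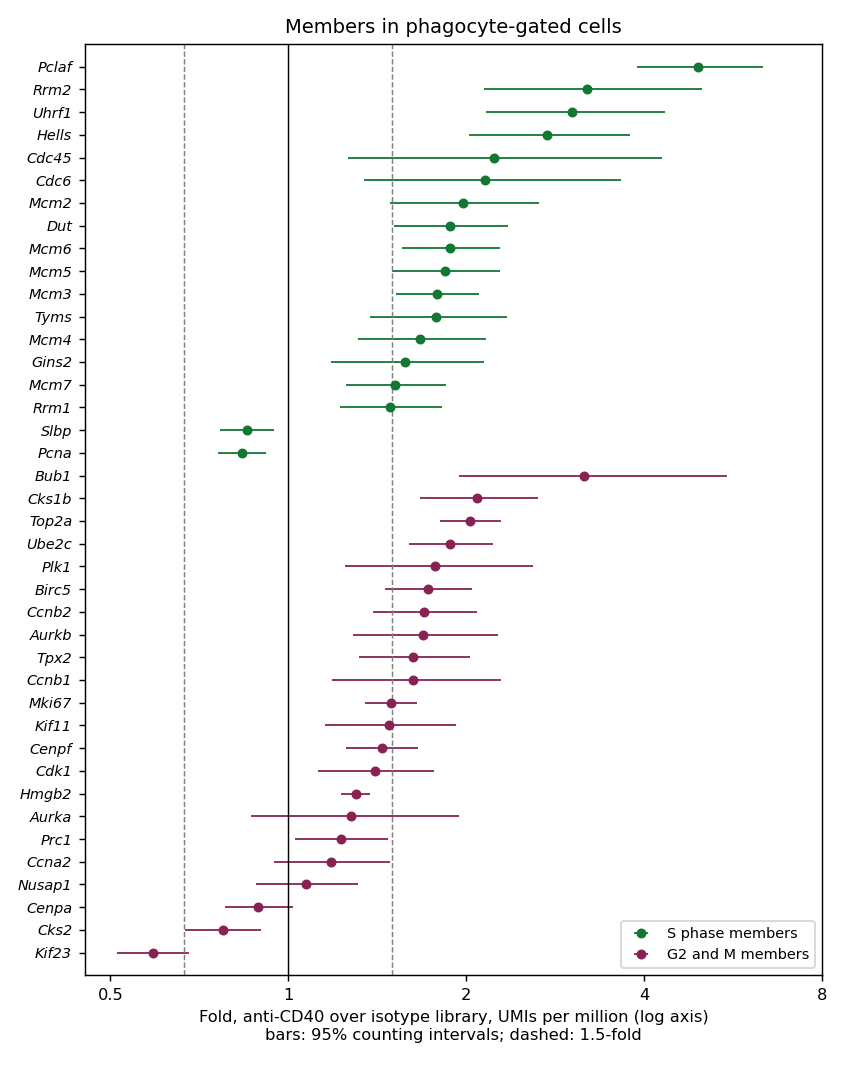
Ratio of anti-CD40 to isotype CPM in phagocyte-gated cells (x axis, log scale) for each of the 40 members (y axis), with 95% counting intervals. Pclaf is at the far right of the S members at 4.93-fold, and Kif23, Cks2 and Cenpa of the G2 and M members and Slbp and Pcna of the S members lie left of 1.

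The pooled ratios combine cycling and other phagocyte-gated cells, and the 5 members with a ratio under 1 were also lower in the cells that were not cycling. In those cells Kif23 was at 32.2 CPM in the isotype library (159 UMIs, in 16.02% of cells) and 5.74 in the anti-CD40 library, 0.178-fold (0.139 to 0.228). Cks2 was at 24.1 and 11.8, Cenpa at 27.8 and 13.2, Pcna at 99.3 and 66.1 and Slbp at 82.1 and 59.6. Cycling cells held only 11.6% of the isotype Pcna UMIs and 9.19% of the Slbp UMIs, against 95.7% of Pclaf UMIs and 97.0% of Ube2c UMIs. Kif23 and Cks2 were also found in neutrophils, at 175 and 61.3 and at 296 and 145 CPM, and neutrophil markers in the phagocyte gate differed between the libraries (median 0 and 2.43 per 10000, higher in the anti-CD40 library). B cell markers went the other way, at a median of 1.503 and 0 per 10000 in the gate and at 2.15 and 0.214 pooled over the cells that were not cycling, and isotype B cells held Cenpa, Slbp and Pcna. The part of neutrophil and B cell RNA in these levels was not tested. Over all 22 G2 and M members, with no minimum of UMIs, 18 were higher and 4 lower in anti-CD40 cells that were not cycling. Of the 16 that met the UMI minimum set for counting genes, 8 were over 1.5-fold higher and 3 over 1.5-fold lower. Ccnb1, Ccna2 and Kif11, counted among the 18, did not meet it. They had 1, 2 and 2 isotype UMIs in these cells, and their intervals included 1. The shares among all genes were not counted for these cells, so whether these counts differ from those of all genes is not known.

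Cycling phagocytes of the isotype library leaned to G2 and M, and those of the anti-CD40 library less so. Summed over cycling cells and leaving out Top2a and Mki67, which chose them, the isotype library held 2380 G2 and M UMIs and 405 S UMIs, 5.88 per S UMI (5.29 to 6.55). The anti-CD40 library held 18640 and 8693, 2.14 per S UMI (2.09 to 2.20), a log2 ratio of -1.45 (-1.61 to -1.30) between the libraries. By cell, 19 of 20 isotype cycling phagocytes held more G2 and M than S UMIs (95%, 75.1 to 99.9) and 195 of 294 anti-CD40 ones (66.3%, 60.6 to 71.7). In the cells that were not cycling the ratio was 0.767 and 0.735. The log2 ratio between the libraries was -0.99 (-1.54 to -0.45) at 2000 UMIs a cell, on 11 isotype cells, and -2.01 with a stricter gate, so its direction was the same but its size moved. Intervals on these UMI ratios treat the UMIs of a cell as independent and are too narrow. In the anti-CD40 library cycling T cells held 1.60 G2 and M UMIs per S UMI (1.51 to 1.70) and cycling NK cells 2.15 (1.98 to 2.34), and the 8 cycling isotype dendritic cells 1.13 (1.03 to 1.25).

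Gene by gene, all 22 G2 and M members were at a lower level in cycling anti-CD40 phagocytes than in the 20 cycling isotype ones, and 13 of 18 S members were higher. The 22 include Top2a and Mki67, which chose the cells. The choice used all UMIs in libraries of unlike depth, and the comparison by gene was not repeated in thinned cells. Cenpf was at 652 and 233, Ccnb2 at 312 and 121 and Hmgb2 at 1927 and 988. Mki67, 1 of the genes that chose the cells, was at 1269 and 496. Pclaf was at 207 and 263 and Mcm6 at 34.0 and 76.9. Of the members with 30 UMIs, 19 of 19 G2 and M members were over 1.5-fold lower, where 10.1% of 5201 genes were, and 5 of 16 S members were over 1.5-fold higher, where 33.3% of genes were. The minimum admits a gene that is lower only when it is high in the 20 isotype cells, so the counts of tested members are no support beyond the values, and the S share was no larger than that of all genes. Both groups of cycling cells were far above the cells that were not cycling: the 20 G2 and M members other than Top2a and Mki67 summed to 7350 against 275 CPM in the isotype library and 3104 against 273 in the anti-CD40 library, and the S members to 1251 against 358 and 1448 against 371. With 30 UMIs as the minimum, 4 of 4 S and 19 of 19 G2 and M members were over 1.5-fold higher in the cycling isotype cells, where 7.28% of 5744 genes were, and 18 of 18 and 22 of 22 in the cycling anti-CD40 cells, where 8.41% of 10410 genes were. The small isotype count of S members was set by that minimum, and Mcm3, with 22 UMIs in cycling and 147 in other isotype cells, was among those not tested. The minimum admits a gene higher in the cycling isotype cells only when it has 30 UMIs in those 20 cells. The isotype counts are therefore no support beyond the values. Top2a and Mki67, which chose the cells, are counted among the G2 and M members in both libraries.

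**Figure D3:**
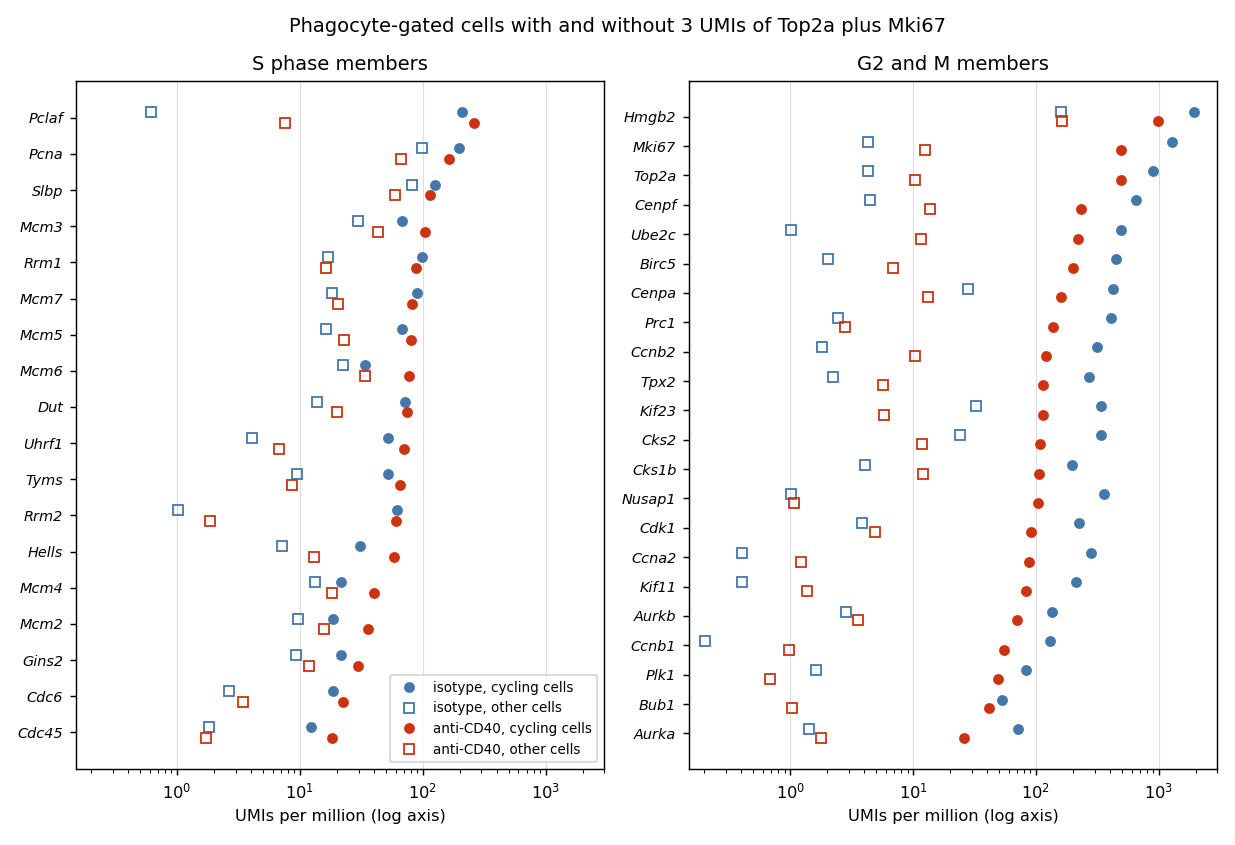
Level of each member in CPM (x axis, log scale) in cycling (filled circles) and other (open squares) phagocyte-gated cells of the 2 libraries. In the right panel every isotype circle lies right of its anti-CD40 circle (Cenpf 652 and 233), and Bub1, with 0 UMIs in the other isotype cells, has no square for them. Top2a and Mki67 chose the cycling cells, with all UMIs counted. Each group is 1 library, with 20 and 294 cycling cells.

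Top2a and Mki67 are themselves G2 and M members, so the 2 phases were also counted by their own genes. At 2000 UMIs a cell, 5 or more UMIs of the 18 S members were found in 4 of 566 isotype phagocytes (0.707%, 0.193 to 1.80) and 93 of 1940 anti-CD40 ones (4.79%, 3.89 to 5.84). For 19 G2 and M members, with Top2a, Mki67 and Hmgb2 left out, 5 or more UMIs were found in 16 (2.83%, 1.62 to 4.55) and 112 (5.77%, 4.78 to 6.91). Cells high for S alone were 2 of 566 (0.353%, 0.0428 to 1.27) and 73 of 1940 (3.76%, 2.96 to 4.71), and 58 of those 73 were not cycling by Top2a and Mki67. Cells high for G2 and M alone were 14 (2.47%, 1.36 to 4.12) and 92 (4.74%, 3.84 to 5.78), and cells high for both 2 and 20. No neutrophil was high for S, 0 of 94 and 0 of 234, with exact upper limits of 3.85% and 1.56%, and 1 of 94 and 0 of 234 were high for G2 and M. More T cells were high for S alone than for G2 and M alone. Of 138 anti-CD40 T cells 22 were high for S alone (15.9%, 10.3 to 23.1), 5 for G2 and M alone and 12 for both. Of 92 anti-CD40 NK cells these were 4, 4 and 7. The same 5 UMIs were asked of lists with unlike baselines. Isotype T cells held a mean of 0.593 S and 0.296 G2 and M UMIs at this depth, though 0 of 27 were high for either list.

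How the members divide between S and G2 and M was described in the 294 cycling anti-CD40 phagocytes. They were ranked by the share of G2 and M UMIs among all member UMIs, with Top2a and Mki67 left out and, for each member, that member's own UMIs left out, and the 98 cells with the largest share were set against the 98 with the smallest. The split uses the other members, so these are descriptions. With a single split over all members but Top2a and Mki67, the median depth was 18841 UMIs in the S-rich cells and 14225 in those rich in G2 and M. All 18 S members were lower and all 22 G2 and M members higher in the cells rich in G2 and M, but by very different amounts. Plk1 differed most, at 3.76 and 129 CPM (log2 5.10), followed by Ube2c (4.81), Ccnb2 (4.56), Cenpa (4.49) and Cenpf (4.41). Top2a (1.12), Cdk1 (1.19), Aurkb (1.37), Hmgb2 (1.46) and Cks1b (1.70) differed least, and were detected in the S-rich cells, Hmgb2 at 576 CPM. Top2a stood at 324 CPM there, but every ranked cell was chosen by Top2a plus Mki67. Its level and ratio are therefore set in part by that choice. Ccna2 lay between, at 2.12. On the S side Cdc6 (-4.16), Mcm2 (-4.06), Hells (-3.71) and Mcm6 (-3.51) differed most, while Pclaf (-0.73), Rrm1 (-0.88) and Cdc45 (-1.40) were still present in the cells rich in G2 and M, Pclaf at 180 against 299 CPM.

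**Figure D4:**
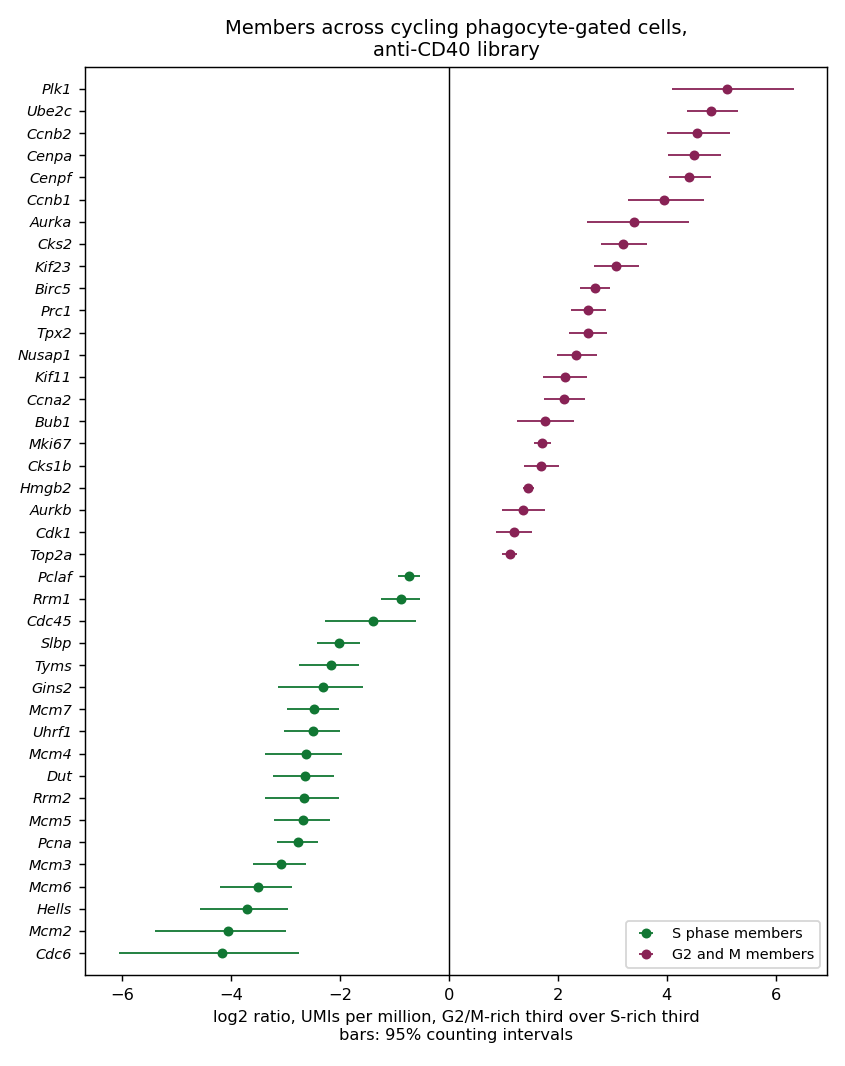
Log2 ratio of CPM between the 98 cycling anti-CD40 phagocytes richest in G2 and M UMIs and the 98 richest in S UMIs (x axis), for each member (y axis), with 95% counting intervals. Plk1 is highest at 5.10 and Cdc6 lowest at -4.16, and the S and G2 and M members do not cross 0.

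Genes of the cycle that were not members lay on the same sides. Of 39 other S phase genes with 30 UMIs in these cells, 38 were over 1.5-fold higher in the S-rich cells and 0 in the cells rich in G2 and M, where 10.6% of 6971 genes were on each side. Of 49 other G2 and M genes 43 were over 1.5-fold higher in the cells rich in G2 and M and 1, Mybl2, in the S-rich cells (log2 -2.89). Named after their values were seen, Ccne2, a cyclin of S phase entry, had 138 UMIs in the S-rich cells and 0 in the others. Cdc20, the activator of cyclin destruction, had 13 and 289 (log2 4.88). Cdkn2c and Cdkn2d, inhibitors of the G1 kinases, were also higher in the cells rich in G2 and M, at log2 1.85 and 1.91. Of the 20 G1 genes and brakes tested 5 were over 1.5-fold higher on each side.

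In phagocyte-gated cells as a whole, 26 of 40 other S phase genes passed 1.5-fold upward in anti-CD40 cells and 0 downward. The largest ratios were of Ccne1, another cyclin of S phase entry, with 2 and 148 UMIs (14.8-fold, 4.01 to 123), Tk1, thymidine kinase, at 3.42-fold (2.52 to 4.77), and Rfc5, a subunit of the clamp loader, at 2.94-fold (2.11 to 4.22), leaving out Orc1, which had 2 and 32 UMIs and an interval that included 1. The smallest were of Rpa2 (0.870), Pold3 (0.996) and Gins3 (1.12). Of 48 other G2 and M genes tested 20 were higher and 1 lower, from Mybl2 (4.49-fold, 1.69 to 16.8), Cenpm (3.14) and Spc24 (2.77) down to Espl1 (0.793), Anln (0.775) and Ect2 (0.649). Of 24 genes of G1 and its brakes 1 was over 1.5-fold higher and 6 lower, where 13.7% and 22.5% of all 10473 genes were, so the share of lower ones was near that of all genes. The higher one was Ccnd1, the cyclin that links growth signals to the cycle, at 179 and 369 CPM, 2.06-fold (1.93 to 2.21), and it was also higher in cells that were not cycling, at 180 and 366. The lowest were Cdkn1c, a brake on the cycle kinases (18.6 and 5.46, 0.293-fold, 0.225 to 0.383), Btg2 (0.428-fold) and Tob1 (0.482-fold), both antiproliferative. Of 6 growth signal genes tested, Csf1, the macrophage growth factor, was higher (22 and 290 UMIs, 2.63-fold, 1.70 to 4.26) and 3 were lower, its receptor Csf1r (0.429-fold), Igf1r (0.312-fold) and Myc (0.607-fold). Csf1r is also a gating marker of these cells.

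In NK-gated cells most members were at or near 0 in the isotype library. Leaving out Hmgb2, the G2 and M members summed to 146 CPM (109 to 193) in 83 isotype cells and 1980 (1887 to 2076) in 104 anti-CD40 cells, 13.5-fold (10.2 to 18.3), and the S members to 535 and 1384, 2.59-fold (2.21 to 3.04). Of the 31 members with 30 UMIs or more in the higher library, 28 were over 1.5-fold higher and 0 lower, against 22.6% and 18.5% of 3189 genes. The minimum admits a member at 0 in the isotype library only when it is high in the other. Mki67 had 2 and 289 UMIs (57.6-fold, 15.8 to 478), Top2a 7 and 309 (17.6-fold, 8.43 to 44.1), Pclaf 1 and 182 (72.5-fold, 12.8 to 2879) and Ube2c 1 and 153 (60.9-fold, 10.8 to 2423). Birc5, Cenpf and Rrm2 had 0 UMIs in the isotype cells and 111, 96 and 60 in the anti-CD40 cells, at least 14.7-fold, 12.7-fold and 7.97-fold higher with 3 counts set for the isotype gate. Pcna (99.4 and 164 CPM, 1.65-fold, 1.13 to 2.48), Slbp (170 and 200) and Hmgb2 (471 and 1059) were already well detected in isotype NK cells. As few as 5 anti-CD40 cells held 60.1% of the G2 and M UMIs without Hmgb2, and the 17 cycling cells 94.1%.

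T-gated cells of the anti-CD40 library, 160 in number, carried the S members at 2135 CPM (2051 to 2222) and the G2 and M members at 3725 (3613 to 3839), the highest sums of any gated class with over 50 cells there. The 27 isotype T cells were at 467 (373 to 578) and 584 (478 to 707), too few for a comparison. Mki67 and Top2a each had 1 UMI in the isotype and 408 in the anti-CD40 T cells, Pclaf 0 and 307, Dut 8 and 318 and Mcm6 3 and 145. In conventional dendritic cells, with 60 and 14 cells, the sums were alike in value, 986 and 908 for S and 1399 and 1443 for G2 and M. In classical monocytes the S sum was 262 and 418, 1.60-fold (1.35 to 1.90), and the G2 and M sum without Hmgb2 107 and 588, 5.50-fold (4.38 to 6.99), with 71.5% of the latter UMIs in 5 anti-CD40 cells. Of 11 members tested there 8 were over 1.5-fold higher, against 17.1% of 4539 genes, but the minimum of 30 UMIs admits a member near 0 in the isotype library only when it is high in the other, so this count is no support beyond the values.

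Neutrophils, which held almost no cycling cells, still carried several members. Hmgb2 was at 1055 and 787 CPM and made up 410 of 620 and 848 of 1199 of their G2 and M UMIs. Cks2 was at 296 and 145, 0.489-fold (0.382 to 0.628), and Kif23 at 175 and 61.3, 0.3502-fold (0.246 to 0.499). With Hmgb2 left out the G2 and M sum was 540 and 326, 0.603-fold (0.507 to 0.719), and the S sum 162 and 156, 0.962-fold (0.716 to 1.31). Isotype B cells, with 0 cycling of 308, held Cenpa at 83.3, Slbp at 114 and Pcna at 80.2 CPM. Nonclassical monocytes, 49 and 53 cells, held S sums of 325 and 185 and G2 and M sums of 602 and 441. These members were thus detected in classes where few or no cells met the cycling rule.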

How the data were processed

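Single-cell RNA and antibody tag counts were read from 1 isotype and 1 anti-CD40 library. Per the file headers, the deposited UMI counts were written by Cell Ranger 6.0.1. The submitters' processing notes name Cell Ranger 3, Seurat 3 and the builds GRCh38 and mm10. Libraries were made with 10x 5′ reagent V1.1, per the labels' protocols. Aligner settings are not given in the sources used here.

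Barcodes with at least 200 genes and below 10% mitochondrial UMIs were kept, 22687435 and 47485251 gene UMIs in all, isotype first. Cells were gated on marker UMIs per 10000, with cuts set after viewing marker distributions and without reading a cell cycle gene. The members and lists were chosen with earlier results of these data known. All 40 members are reported, and other pathway genes are named as the 3 highest and 3 lowest ratios of their list, with any others said to be named after their values were seen. Thinning (seed 7) drew 2000 UMIs a cell. Shares have Clopper-Pearson intervals, levels exact Poisson intervals and ratios exact conditional binomial intervals. Genes were counted as different at 1.5-fold with 30 UMIs in the higher library, a description and not a test. UMIs of 1 cell are not independent, so intervals on levels are too narrow. On independent Poisson counts simulated for 9487 genes of the phagocyte gate, 95.8% of intervals held the true ratio, and 0.248% of unchanged genes passed 1.5-fold. Clumping of UMIs within cells and differences between preparations were not simulated. These values therefore check the calculation only and are not error rates for the data. Alternatives were other filters, gates, depths, thresholds and scalings (TMM from edgeR 4.0.16, median of ratios). Doublets were not called, and with 1 library a group no replicate could be left out. Tools were Python 3.11.15, NumPy 2.4.6, pandas 2.3.3, SciPy 1.17.1, matplotlib 3.10.9 and R 4.3.3.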

Additional observations from a re-analysis of the deposited data

Results flagged for a closer look

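The G2 and M members summed to a lower level in anti-CD40 neutrophils, 0.698-fold (0.633 to 0.770) of the isotype level, and to a higher level in anti-CD40 phagocytes, 1.36-fold. In phagocytes 3 members were lower in the anti-CD40 library while in NK cells they were higher: Pcna at 0.835-fold against 1.65-fold, Kif23, the motor of the dividing furrow, at 0.590-fold against 5.98-fold on 3 isotype UMIs, and Cks2 at 0.774-fold against 1.91-fold. These differences between classes were not tested, since each class had 1 library per group. In phagocytes the direction of Pcna changed with the scaling and that of Cks2 in thinned cells. Kif23 kept its direction there, but its log2 ratio was -0.46 with TMM and -0.13 in thinned cells.

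Cycling cells also appeared among the barcodes that the filter left out. There 158 of 2809 anti-CD40 barcodes (5.62%, 4.80 to 6.54) and 16 of 2350 isotype barcodes (0.681%, 0.390 to 1.103) held 3 or more UMIs of Top2a plus Mki67, at a median of 1560 and 1037 UMIs and of 19.9% and 21.9% mitochondrial UMIs.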

How the results depend on the processing

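The higher cycling share of anti-CD40 phagocytes kept its direction under all 9 alternatives, but its size did not: from 2.75 points it went to 7.24 at 5000 UMIs a cell, 11.2 without thinning, 5.08 at 2 UMIs and 0.958 at 5 UMIs of Top2a plus Mki67, and 5.65 with 10 UMIs of the 40 members. The NK difference stayed within its interval under all 9 (7.61 to 17.4 points). The log2 ratio of the S sum in phagocytes was 0.50 with 500 genes and below 5% mitochondrial UMIs, 0.72 with a stricter gate, 0.88 with TMM, 0.89 with median of ratios, 0.56 in thinned cells and 0.55 as a mean over cells. That of the G2 and M sum was 0.15, 0.39, 0.75 and 0.76 under the same settings, 0.51 below 20% mitochondrial UMIs, 0.60 in thinned cells and 0.77 as a mean over cells. Members over 1.5-fold higher numbered 15 with 500 genes and below 5% mitochondrial UMIs, 9 at a fold of 2 and 33 with TMM. The balance of G2 and M to S in cycling cells was -2.01 with a stricter gate and -0.99 in thinned cells. Leaving out Hmgb2 was chosen after seeing the data and gave 0.48 for the G2 and M sum and -1.57 for the balance. Of single members, 33 of 40 kept their direction, and 12 of 40 passed 1.5-fold under every alternative that gave a value. Cdc6 gave none in thinned cells, where the isotype library held 0 UMIs. The cause of these shifts was not tested. No paired analysis was possible because each group had 1 library. Cell number limits the classes under 100 cells, where a count of 0 still allows shares of several percent.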

Other observations

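Among G1 genes and brakes, phagocyte-gated cells below the cycling rule also differed between the libraries. These cells were not shown to be outside the cycle, and 2.74% of the isotype and 11.9% of the anti-CD40 ones held Mki67. In them Cdkn2c and Cdkn2d, inhibitors of the G1 kinases, were at 17.0 and 6.97 CPM and at 21.7 and 13.5 CPM in the isotype and anti-CD40 libraries, while Ccnd1 was at 180.3 and 365.7. These genes were named after their values were seen.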
